A study of Homo sapiens with 16 samples.

Results

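DNA replication and nucleotide supply genes are described here across an estrogen time course in a breast and an endometrial cancer cell line. The set is a named list of 48 genes, out of 26364 genes in the count tables. The rule names the genes by their role and sets no threshold on a measured value, although the list was compiled with earlier results of these data known. The 48 genes were placed in 7 role groups: origin licensing (11 genes), helicase activation (6), polymerases and primase (9), clamp and clamp loading (6), lagging strand and RPA (6), nucleotide synthesis (4), and chromatin copying, checkpoint and turnover (6). All 48 passed the filter on low counts in both cell lines, and the lowest count of any member in any library was 360, for ORC1.

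Bulk RNA-seq was conducted in T-47D, a line from a human breast carcinoma, and in Ishikawa, a line from a human endometrial adenocarcinoma. Per the labels, cells of both lines were kept for 3 days in hormone-deprived media (the study's methods give a longer time), and then received 10 nM 17β-estradiol (E2) for 0, 2, 4 or 8 h, where the 0-h cells were treated with vehicle. Each line and time point had 2 replicates, which gave 16 libraries of poly(A) RNA. Nothing states that replicates came from separate cultures, so p-values measure only the spread between these samples, which may be technical. Each tissue is represented by 1 cell line, so differences between the lines are not shown to be differences between tissues.

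DNA is copied once per cell cycle. In G1, the origin recognition complex, CDC6 and CDT1 load the MCM2-7 helicase onto origins, a step called licensing, and at the start of S phase CDC45 and the GINS complex turn the loaded helicase on. Polymerase α-primase starts each strand, polymerases δ and ε extend it on the PCNA clamp that RFC loads, and ribonucleotide reductase and thymidylate synthase supply the nucleotides. Most of these genes are known targets of the E2F transcription factors, whose activity rises as cells pass from G1 into S phase, and estrogen is a well-known mitogen for hormone-dependent breast cancer cells.

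Library totals ranged from 41177912 to 58918642 counts in Ishikawa cells and from 41223813 to 64148903 in T-47D cells. The lines expressed their own defining markers, with GATA3 between 1020 and 1230 CPM (counts scaled to a total of 1e6 per library) in T-47D cells and PAX8 between 189 and 319 CPM in Ishikawa cells, while SOX17 was at 0 in all T-47D libraries and PIP at 0 in all Ishikawa libraries. Of 7 mammary luminal markers, SCGB2A2 was absent from T-47D cells (0 to 0.0495 CPM). The summed level of 7 stromal, immune and endothelial markers lay between 4.25 and 10.5 CPM in every library. The Ishikawa 4-h and 8-h libraries resembled each other across their time labels: the root mean square log2 difference over all genes was 0.442 between the 4-h replicates, 0.406 between the 8-h replicates and 0.388 to 0.434 between libraries of different times, and 2 of 15787 genes differed between these times. Ishikawa results are therefore also given with the 4-h and 8-h libraries as 1 group. In T-47D cells, the corresponding values were 0.359 and 0.390 within a time point and 0.387 to 0.402 between 4 h and 8 h.

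Promoter sequences of the members were also examined. RefSeq promoter windows on GRCh38, from 250 bases before to 50 bases after a transcript start, matched 42 of the 48 genes with 54 windows. The 160 bases directly upstream of the start are printed 5′ to 3′ on the strand of the gene for DTL, MCM6 and PCNA, which rose in T-47D cells and hold an E2F word, for MCM10, which rose and holds none in its window, and for TYMS, which holds a word but did not pass the test. These genes were chosen after their values were seen, and capitals mark the E2F words.
DTL, chr1:212035588-212035747 (+ strand): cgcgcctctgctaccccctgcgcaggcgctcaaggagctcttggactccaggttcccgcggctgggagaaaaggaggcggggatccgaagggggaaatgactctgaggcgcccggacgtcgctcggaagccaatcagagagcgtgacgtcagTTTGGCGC
MCM6, chr2:135876444-135876603 (- strand): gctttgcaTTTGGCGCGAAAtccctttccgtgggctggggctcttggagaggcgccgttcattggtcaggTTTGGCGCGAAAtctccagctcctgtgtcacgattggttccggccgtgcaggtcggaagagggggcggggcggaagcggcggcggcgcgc
PCNA, chr20:5126623-5126782 (- strand): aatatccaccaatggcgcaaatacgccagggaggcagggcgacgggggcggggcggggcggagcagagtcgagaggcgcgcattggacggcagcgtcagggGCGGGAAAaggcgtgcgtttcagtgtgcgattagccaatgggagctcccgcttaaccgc
MCM10, chr10:13161398-13161557 (+ strand): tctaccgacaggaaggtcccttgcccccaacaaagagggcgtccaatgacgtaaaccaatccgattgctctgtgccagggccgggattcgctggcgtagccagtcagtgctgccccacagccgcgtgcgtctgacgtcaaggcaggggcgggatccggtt
TYMS, chr18:657493-657652 (+ strand): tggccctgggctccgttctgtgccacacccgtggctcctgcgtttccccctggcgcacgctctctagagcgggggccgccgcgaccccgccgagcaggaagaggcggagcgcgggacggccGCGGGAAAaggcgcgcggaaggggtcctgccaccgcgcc

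The words searched were TTTCCCGC, TTTGGCGC, TTTCGCGC and TTTGCCGC on both strands, and words that overlap were each counted. In these stretches, the word nearest to the start began 8 bases upstream in DTL, 86 in MCM6, 59 in PCNA and 39 in TYMS, and in MCM6 each capital run holds overlapping words on opposite strands. An E2F word was present in 22 of 54 member windows (40.7%), compared with 1164 of 35116 promoter windows of all genes (3.31%). CCAAT, in either direction, was present in 61.1% of member windows and 34.6% of all windows. An estrogen response element, searched as GGTCA and TGACC with 3 bases between them, was present in 0 of 54 member windows and in 0.057% of all windows. Such matches describe the letters of these windows and are not measured binding sites. No promoter window was matched for MCM4, MCM5, GINS4, POLD3, RPA2 and RPA3.

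To place the E2 response of these genes in time, each time point was compared with 0 h. In T-47D cells, the replication genes did not pass the test after 2 h, 19 of 48 rose after 4 h, and 41 of 48 rose after 8 h, with DTL, MCM10, CDC6, MCM6, MCM2 and UHRF1 rising the most. No member was called down at any time in T-47D cells. The summed level of the 48 genes was 3551 and 3393 CPM in the 0-h replicates, 3491 and 3463 after 2 h, 3796 and 3780 after 4 h and 4489 and 4403 after 8 h, so that the 8-h libraries stood above all others and the 2-h libraries lay between the 0-h replicates. In bulk RNA, more cells that express a gene and more RNA per cell cannot be told apart.

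At 2 h, 0 of 48 members were called by the quasi-likelihood test of edgeR (Benjamini-Hochberg adjusted p under 0.05) in T-47D cells, against 4.90% of all tested genes called up and 4.40% called down. In this comparison 5 members had an unadjusted p under 0.05, as did 22.2% of all genes, DESeq2 called 0, and without the first 0-h replicate 3 members, CDC6, PCNA and SLBP, were called up. The 4-h count of 19 rising members compares with 11.1% of all genes called up and 10.4% called down. The 8-h count of 41 compares with 15.4% called up and 14.3% called down. The median log2 fold change of the members was -0.01 after 2 h, 0.10 after 4 h and 0.37 after 8 h, while that of all 15594 tested genes was -0.01, 0.00 and 0.00. Between successive time points, 8 members rose from 2 h to 4 h (1.94% of all genes up, 1.46% down) and 24 rose from 4 h to 8 h (2.09% up, 1.33% down). The 4-h count depended on single libraries, as 7 members were called without the second 0-h replicate, 8 without the first 4-h replicate and 11 without the second, and CDC6, MCM6, MCM10, UHRF1, DTL and SLBP were called in all 8 fits that left out 1 library. The 8-h count lay between 36 and 40 in such fits, and 34 members were called in all of them. From 2 h to 4 h, 2 members were called without the first 2-h replicate, 4 without the second 2-h or the second 4-h replicate and 5 without the first 4-h replicate, and from 4 h to 8 h, 16 and 13 were called without the first and second 4-h replicate.

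**Figure D1:**
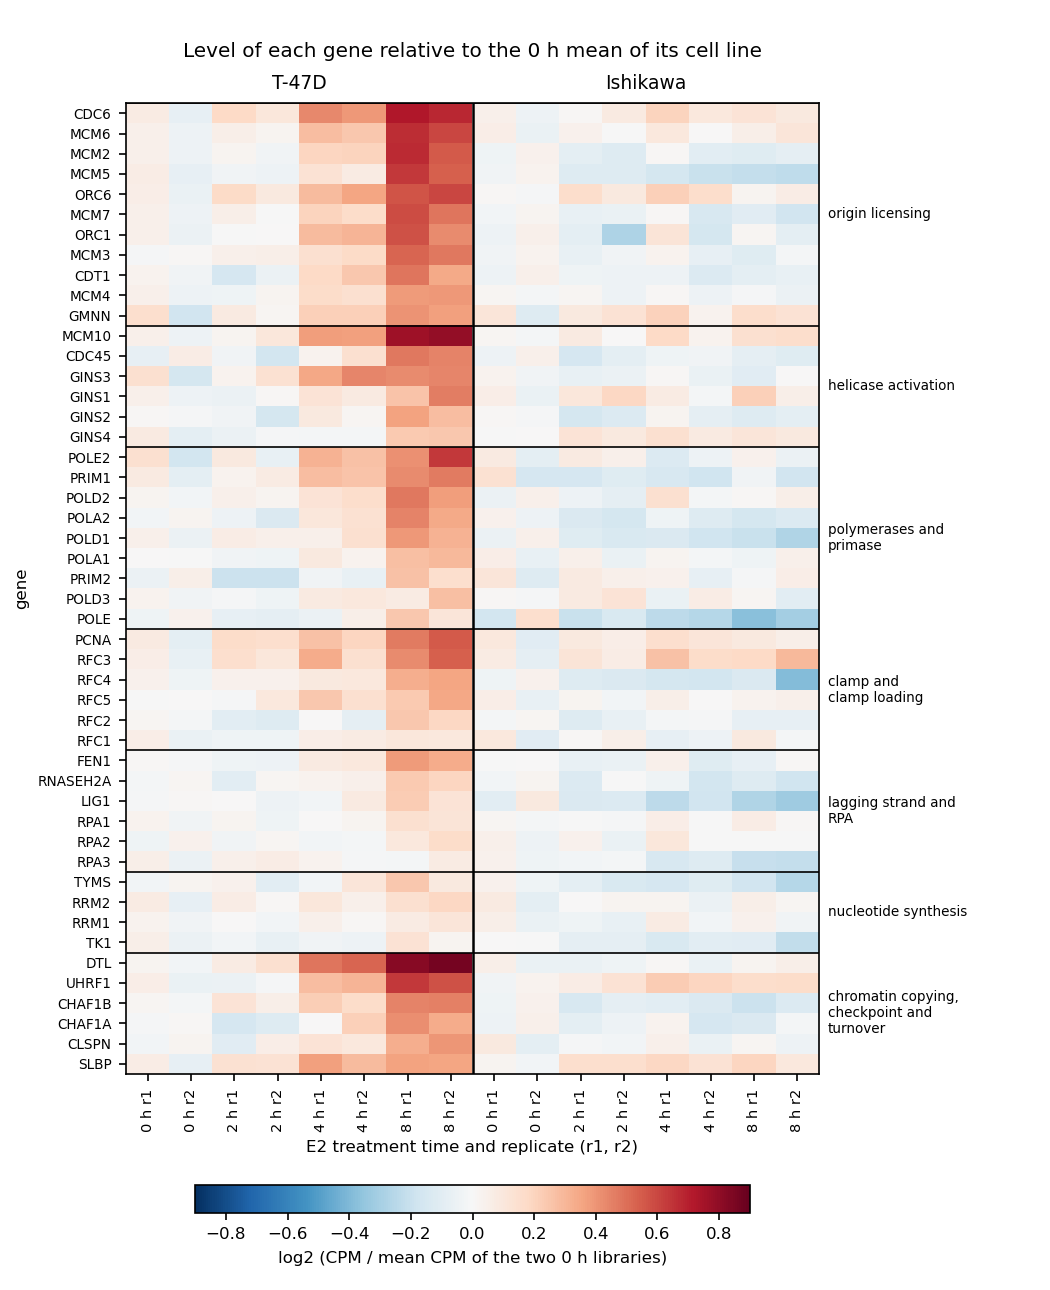
Level of each of the 48 genes in each of the 16 libraries, as the log2 ratio of its CPM to the mean CPM of the 0-h replicates of the same line (color scale from -0.9 to 0.9). Rows are grouped by role, and the T-47D 8-h columns are red in nearly every row while the Ishikawa columns stay pale.

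The level ranges of 46 of the 48 members at 8 h in T-47D cells lay entirely above their 0-h range, and none lay below, while of all tested genes 30.2% lay above and 29.8% below. The exceptions were TK1, a thymidine kinase of nucleotide salvage, and RPA3, the smallest subunit of the single-strand binding protein RPA. At 4 h, 33 members lay above and 0 below (30.2% and 29.5% of all genes), and at 2 h, 8 lay above and 9 below (26.7% and 26.0% of all genes). The second 0-h replicate was lower than the first for 36 of 48 members, with a median log2 ratio of -0.08. The tests did not use this gap alone but an estimate of the spread shared by all T-47D libraries.

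Of the origin licensing genes, 11 of 11 were called up after 8 h and 9 of 11 after 4 h in T-47D cells. Their median log2 fold change was 0.20 after 4 h and 0.53 after 8 h. CDC6 (chromosome 17, 38444131 to 38460909), the ATPase that loads the MCM helicase, was at 59.0 and 53.1 CPM before E2, 63.4 and 60.3 after 2 h, 75.5 and 73.4 after 4 h, and 92.2 and 89.9 after 8 h in T-47D cells. All 4-h and 8-h values of CDC6 exceeded every earlier value, and its log2 fold change was 0.40 ± 0.06 (SE) after 4 h (adjusted p = 3.44e-05) and 0.70 ± 0.06 after 8 h (adjusted p = 2.97e-08). MCM6 (chromosome 2, 136597196 to 136634013), a helicase subunit, was at 92.0 and 86.6 CPM before E2, 92.5 and 90.7 after 2 h, 108 and 106 after 4 h, and 142 and 135 after 8 h. MCM2 (chromosome 3, 127317253 to 127341279), another helicase subunit, was at 134 and 126 CPM before E2, 132 and 127 after 2 h, 148 and 149 after 4 h, and 206 and 189.7 after 8 h. Both subunits stayed within the 0-h range or close to it at 2 h and reached their highest values in the 8-h replicates, with log2 fold changes of 0.63 ± 0.05 for MCM6 (adjusted p = 1.71e-08) and 0.61 ± 0.05 for MCM2 (adjusted p = 3.9e-08). MCM5 (chromosome 22, 35796127 to 35821424) was at 59.9 and 54.3 CPM before E2, 55.7 and 55.4 after 2 h, 62.4 and 60.2 after 4 h, and 88.9 and 82.9 after 8 h. It was not called at 4 h (0.10 ± 0.06, adjusted p = 0.257) but rose by 8 h (0.59 ± 0.06, adjusted p = 3.31e-07), and between 4 h and 8 h its log2 difference of 0.49 was the largest of any member.

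The remaining licensing genes rose at 8 h by 0.38 to 0.58 on the log2 scale. These were ORC1 (0.50) and ORC6 (0.58) of the origin recognition complex, CDT1 (0.41), which delivers the helicase, GMNN (0.38), which encodes the CDT1 inhibitor geminin, and the helicase subunits MCM3 (0.50), MCM4 (0.39) and MCM7 (0.53). Of the group, MCM5 and GMNN were the genes not called at 4 h. The 4-h call of MCM2 was lost without the second 0-h replicate or without either 4-h replicate, and its log2 fold change lay between 0.16 and 0.24 in the fits that left out 1 library. The 4-h calls of CDC6 and MCM6 were kept in all such fits. Those of ORC1, ORC6, CDT1, MCM3, MCM4 and MCM7 were each lost in at least 1 of them, and that of ORC1 also with DESeq2.

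Helicase activation genes all rose after 8 h in T-47D cells (6 of 6, median log2 fold change 0.40), and 2 of 6 did so after 4 h. MCM10 (chromosome 10, 13203558 to 13253110), which is needed to activate the loaded helicase, was at 39.4 and 37.0 CPM before E2, 38.8 and 40.95 after 2 h, 49.6 and 49.3 after 4 h, and 64.8 and 66.1 after 8 h. The 0-h and 2-h values of MCM10 overlapped, the 4-h values lay above both, and the 8-h values were 1.71-fold above 0 h in the fit, a log2 fold change of 0.78 ± 0.06 (adjusted p = 9.3e-09). CDC45 (chromosome 22, 19466980 to 19508135), the helicase cofactor, was at 17.1 and 18.8 CPM before E2, 17.5 and 16.03 after 2 h, 18.4 and 19.8 after 4 h, and 24.9 and 24.5 after 8 h. The 2-h and the 4-h values of CDC45 each overlapped its 0-h range, and both 8-h values lay above all others. Its log2 fold change was 0.08 ± 0.08 after 4 h (adjusted p = 0.536) and 0.46 ± 0.08 after 8 h (adjusted p = 0.00036). Of the GINS subunits, GINS3 had reached 0.39 after 4 h and stood at 0.43 after 8 h, whereas GINS4 was at -0.02 and 0.24. GINS1 (0.36) and GINS2 (0.32) lay between these at 8 h. The 4-h call of GINS3 and the 8-h calls of GINS3 and GINS4 were lost without the second 0-h replicate, the 4-h call of GINS3 also without the second 4-h replicate, and the lowest 8-h values of the pair over the fits that left out 1 library were 0.30 and 0.16.

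Among polymerases and primase, 8 of 9 genes rose after 8 h in T-47D cells (median log2 fold change 0.35) and 2 of 9, PRIM1 and POLD2, rose after 4 h. POLE2 (chromosome 14, 50110273 to 50155140), an accessory subunit of polymerase ε, was at 13.5 and 10.9 CPM before E2, 12.9 and 11.6 after 2 h, 15.2 and 14.6 after 4 h, and 16.2 and 19.0 after 8 h. The 0-h replicates of POLE2 were far apart and held the 2-h values between them, and the 8-h log2 fold change was 0.53 ± 0.11 (adjusted p = 0.00113). PRIM1 (chromosome 12, 57124222 to 57146158), the catalytic primase subunit, was at 27.1 and 24.2 CPM before E2, 26.2 and 27.0 after 2 h, 31.1 and 30.7 after 4 h, and 34.4 and 35.4 after 8 h. It rose by 0.26 ± 0.07 after 4 h (adjusted p = 0.0114) and 0.44 ± 0.07 after 8 h (adjusted p = 9.54e-05), and the 4-h call was lost without the second 0-h replicate or the first 4-h replicate, with a lowest value of 0.19. POLD2 (chromosome 7, 44154230 to 44163957), an accessory subunit of polymerase δ, was at 129.5 and 125 CPM before E2, 131 and 129.5 after 2 h, 139 and 142 after 4 h, and 177 and 165 after 8 h. Its rise was 0.14 after 4 h and 0.43 ± 0.05 after 8 h (adjusted p = 1.47e-06), and the 4-h call was kept in 2 of 8 fits that left out 1 library, those without an 8-h replicate.

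POLE (chromosome 12, 133200339 to 133263962), which encodes the catalytic subunit of polymerase ε, was first called at 8 h in T-47D cells, as was its partner POLE2. The T-47D values of POLE were 165 and 174 CPM before E2, 161 and 159.9 after 2 h, 163 and 176 after 4 h, and 200.1 and 182 after 8 h. The 2-h values were the lowest, the 4-h values straddled the 0-h values, and the 8-h values lay above all others, with a log2 fold change of 0.17 ± 0.05 (adjusted p = 0.0164). This call was lost without the first 0-h replicate (0.14) and without the first 8-h replicate (0.11). The other members were POLA1 (0.28) and POLA2 (0.39) of polymerase α, POLD1 (0.35), the catalytic subunit of polymerase δ, and PRIM2 (0.21), the large primase subunit, all called at 8 h. PRIM2 was called in 2 of the 8 fits that left out 1 library, those without the second 0-h or the second 8-h replicate, with values between 0.15 and 0.27 over all fits. POLD3, a further subunit of polymerase δ, was not called at 8 h (0.17 ± 0.07, adjusted p = 0.06).

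Clamp and clamp loading genes rose in 5 of 6 cases after 8 h in T-47D cells (median log2 fold change 0.32), and PCNA, RFC3 and RFC5 rose after 4 h. PCNA (chromosome 20, 5095599 to 5107272), the sliding clamp, was at 109 and 96.6 CPM before E2, 115 and 114 after 2 h, 123 and 117 after 4 h, and 142 and 151 after 8 h. Both 2-h values of PCNA were already above both 0-h values, but the difference did not pass the test (0.15 ± 0.06, adjusted p = 0.107). The log2 fold change of PCNA was 0.22 ± 0.06 after 4 h (adjusted p = 0.0072) and 0.51 ± 0.06 after 8 h (adjusted p = 1.43e-06). RFC3 (chromosome 13, 34392206 to 34540695), a clamp loader subunit, was at 34.6 and 31.6 CPM before E2, 36.8 and 35.6 after 2 h, 41.7 and 36.6 after 4 h, and 44.4 and 48.1 after 8 h. Its log2 fold change was 0.48 ± 0.07 at 8 h (adjusted p = 5.65e-05). RFC4 (chromosome 3, 186507669 to 186524847), another subunit of the loader, was at 66.9 and 63.2 CPM before E2, 66.9 and 66.7 after 2 h, 69.0 and 69.4 after 4 h, and 81.6 and 83.0 after 8 h. Unlike RFC3, its 2-h values lay within the 0-h range, and it was called only at 8 h (0.34 ± 0.05, adjusted p = 3.97e-05). RFC2 (0.22) and RFC5 (0.29) also rose at 8 h. RFC1, the large subunit, did not pass (0.10 ± 0.05, adjusted p = 0.145). The 4-h calls of PCNA and RFC3 were lost without the second 0-h replicate or the first 4-h replicate, where the values were 0.15 and 0.19 for PCNA and 0.18 and 0.14 for RFC3. The 4-h call of RFC5 was lost without either 0-h replicate or the first 4-h replicate. Its lowest value over the fits that left out 1 library was 0.15. The count table also lists PCNAP1, a pseudogene of PCNA, and how reads shared by the copies were counted is not given in the sources used here.

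**Figure D2:**
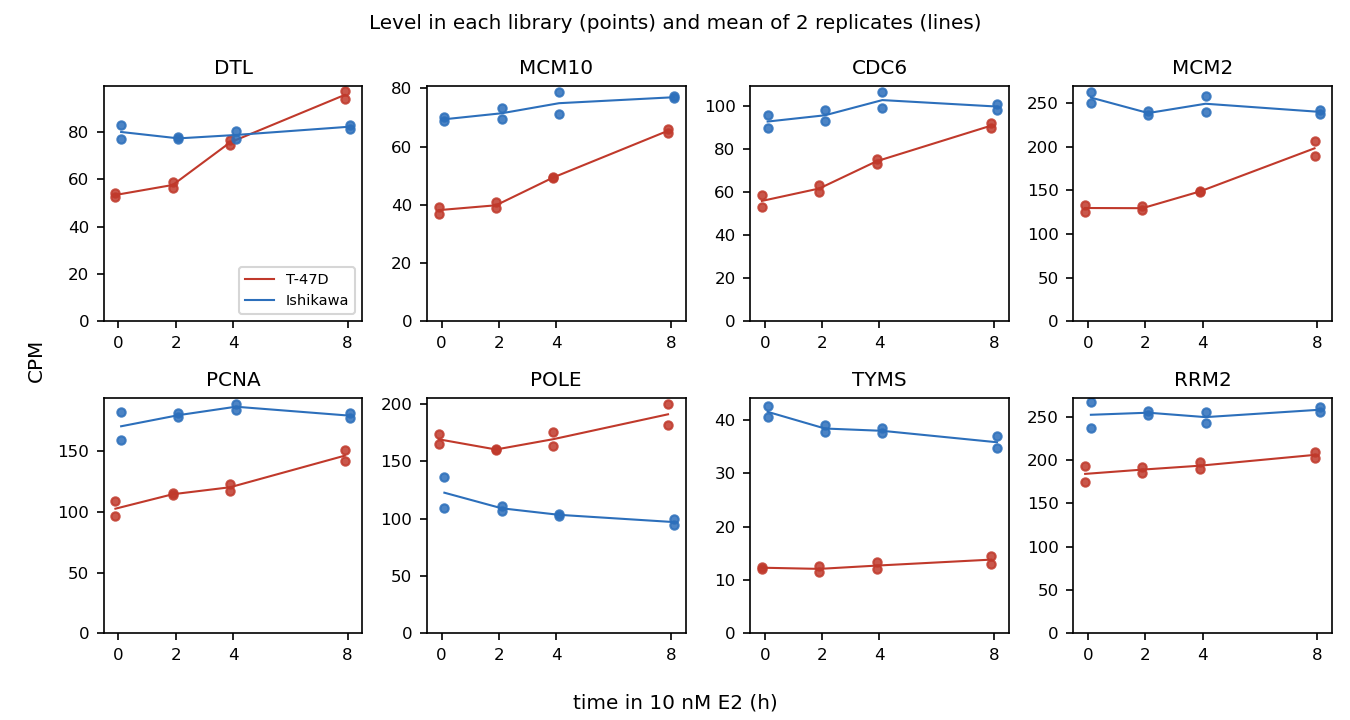
Levels of 8 members in CPM (vertical axes, starting at 0) against hours in 10 nM E2, with 1 point per library and lines through the means of 2 replicates, T-47D in red and Ishikawa in blue. DTL, MCM10, CDC6 and MCM2 rise in T-47D cells after 2 h toward or past the Ishikawa level, whereas TYMS and RRM2 change little and POLE diverges between the lines.

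Lagging strand and RPA genes had a smaller median change after 8 h in T-47D cells than every other role group except nucleotide synthesis. None of the 6 was called after 4 h, 4 of 6 rose after 8 h, and the median log2 fold change after 8 h was 0.15. FEN1 (chromosome 11, 61560383 to 61564710), the flap endonuclease that trims Okazaki fragments, was at 129 and 127 CPM before E2, 124 and 124 after 2 h, 135 and 136 after 4 h, and 166 and 161 after 8 h. Both 8-h values exceeded all values through 4 h, with a log2 fold change of 0.36 ± 0.04 (adjusted p = 4.73e-06). RNASEH2A (chromosome 19, 12917398 to 12924454), a subunit of the nuclease that removes ribonucleotides from DNA, was at 42.5 and 43.5 CPM before E2, 40.3 and 43.5 after 2 h, 44.1 and 44.5 after 4 h, and 50.7 and 49.1 after 8 h, and rose by 0.21 ± 0.06 at 8 h (adjusted p = 0.0086). LIG1 (chromosome 19, 48618702 to 48673860), the ligase that seals the fragments, was at 43.6 and 44.2 CPM before E2, 43.96 and 42.5 after 2 h, 43.1 and 46.5 after 4 h, and 51.5 and 47.9 after 8 h, and rose by 0.18 ± 0.06 at 8 h (adjusted p = 0.0308). The LIG1 call was lost without either 0-h replicate (0.17 and 0.19) and without the first 8-h replicate (0.13). RPA1, the large subunit of RPA, rose by 0.13, a call lost without the second 0-h or the first 8-h replicate (lowest value 0.11), and RPA2 (0.13 ± 0.06, adjusted p = 0.121) and RPA3 (0.03 ± 0.06, adjusted p = 0.773) were not called.

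Nucleotide synthesis genes had the smallest median change of the 7 role groups after 8 h in T-47D cells, with 0 of 4 called after 4 h and only RRM2 called after 8 h (median log2 fold change 0.13). RRM2 (chromosome 2, 10260825 to 10351851), the small subunit of ribonucleotide reductase, was at 193 and 175 CPM before E2, 192 and 186 after 2 h, 197 and 189.8 after 4 h, and 203 and 209 after 8 h. Its 8-h values were the highest, yet the lower of them exceeded the higher 0-h value by little, and the log2 fold change was 0.16 ± 0.05 (adjusted p = 0.0184). The call was lost without the second 0-h replicate (0.10) and without the second 8-h replicate (0.15). TYMS (chromosome 18, 657653 to 673578), thymidylate synthase, was at 12.1 and 12.5 CPM before E2, 12.6 and 11.5 after 2 h, 12.1 and 13.3 after 4 h, and 14.6 and 13.1 after 8 h. The difference at 8 h did not pass (0.17 ± 0.10, adjusted p = 0.215). RRM1, the large reductase subunit (0.09 ± 0.04, adjusted p = 0.127), and TK1 (0.08 ± 0.05, adjusted p = 0.256) did not pass either. Exons of ENOSF1 on the opposite strand overlap 39.9% of the TYMS exon bases, and TYMSOS overlaps 7.97%. Whether the counting used strand is not given in the sources used here, so reads of TYMS and its neighbors may not be separated.

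Genes of chromatin copying, checkpoint and turnover held the largest change of all members. All 6 rose after 8 h in T-47D cells (median log2 fold change 0.41), and DTL, UHRF1 and SLBP rose after 4 h. DTL (chromosome 1, 212208895 to 212280742), the adaptor of the CRL4 ubiquitin ligase that removes CDT1 during S phase, was at 54.4 and 52.5 CPM before E2, 56.3 and 59.1 after 2 h, 74.5 and 76.8 after 4 h, and 94.2 and 97.3 after 8 h. The values were higher at each step with no overlap between time points, and the log2 fold change was 0.10 ± 0.05 after 2 h (adjusted p = 0.265), 0.50 ± 0.05 after 4 h (adjusted p = 1.18e-06) and 0.84 ± 0.05 after 8 h (adjusted p = 8.72e-10), a 1.79-fold change. UHRF1 (chromosome 19, 4903092 to 4962165), which guides maintenance DNA methylation, was at 58.3 and 53.5 CPM before E2, 53.8 and 55.6 after 2 h, 67.6 and 69.0 after 4 h, and 86.7 and 83.0 after 8 h. Its 2-h values lay within the 0-h range, and it rose by 0.60 ± 0.05 at 8 h (adjusted p = 1.28e-07). CHAF1B (chromosome 21, 37757690 to 37791313), a subunit of the histone chaperone CAF-1, was at 25.5 and 24.97 CPM before E2, 27.5 and 26.1 after 2 h, 29.4 and 28.3 after 4 h, and 34.3 and 34.6 after 8 h. CHAF1B missed the threshold after 4 h (0.19 ± 0.07, adjusted p = 0.0536) and rose by 0.45 ± 0.07 after 8 h (adjusted p = 4.98e-05). SLBP, which binds the stem-loop of histone mRNAs, had made most of its change by 4 h (0.32 after 4 h, 0.36 after 8 h), whereas CHAF1A, the large CAF-1 subunit, was at 0.10 and 0.38. CLSPN, the checkpoint adaptor claspin, rose by 0.36 at 8 h.

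**Figure D3:**
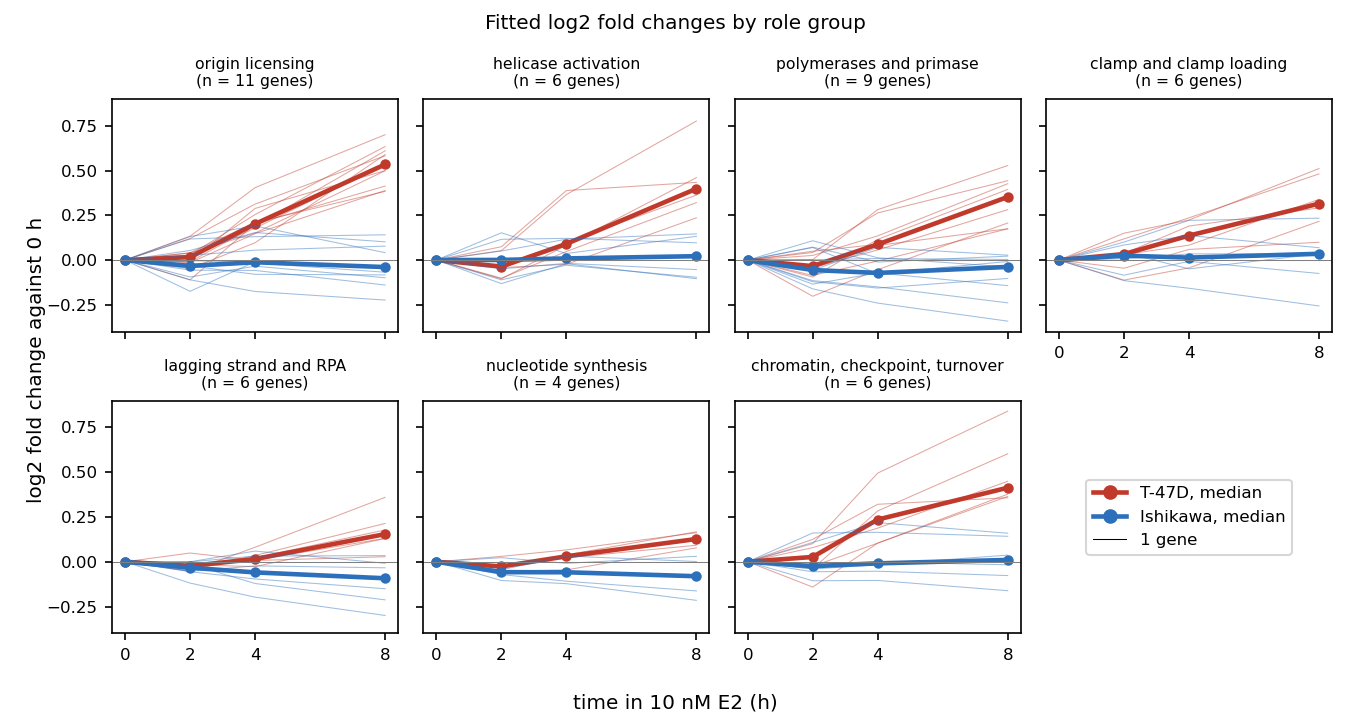
Fitted log2 fold changes against 0 h (vertical axis) at 2, 4 and 8 h in 10 nM E2 for each role group, with thin lines for single genes and thick lines for the median, T-47D in red and Ishikawa in blue. T-47D medians at 8 h run from 0.13 for nucleotide synthesis to 0.53 for origin licensing, while Ishikawa medians stay near 0.

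Timing of the members was set against that of all genes that rose by 8 h in T-47D cells. Of the 41 members called up after 8 h, 0 were first called after 2 h, 19 after 4 h (46.3%) and 22 after 8 h (53.7%). Of all 2404 genes called up after 8 h, 26.4% were first called after 2 h, 35.4% after 4 h and 38.1% after 8 h. The median share of the 8-h log2 fold change that was present at 2 h was -1.51% for the members and 41.5% for all rising genes. At 4 h, the shares were 31.7% and 74.4%. By role, the median share at 4 h was 44.5% for chromatin copying, checkpoint and turnover, 43.8% for clamp and clamp loading, 40.1% for origin licensing, 27.1% for polymerases and primase, 22.5% for helicase activation and 14.6% for the lagging strand group. These shares are described without a test, since numerator and denominator share their 0-h libraries and a gene is counted only if its 8-h change was called.

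In Ishikawa cells, the same genes changed little and in both directions. At 2 h, 0 of 48 members were called by edgeR's quasi-likelihood test, against 2.61% of all genes up and 1.74% down, with 2 members at an unadjusted p under 0.05, as were 16.6% of all genes, and 0 called by DESeq2. At 4 h, UHRF1 rose and MCM5 fell (7.66% of all genes up, 6.60% down). At 8 h, RFC3 rose and MCM5, POLD1, POLE, RFC4, LIG1, RPA3 and TYMS fell (12.0% up, 10.1% down). The RPA3 call was lost in each of the 8 fits that left out 1 library, where its log2 fold change lay between -0.25 and -0.17. With the 4-h and 8-h libraries as 1 group, UHRF1, SLBP and RFC3 rose and MCM5, POLD1, POLE, RFC4 and LIG1 fell (13.5% up, 12.2% down). The median log2 fold change of the members was -0.03 at 8 h and -0.02 in the combined group, against -0.01 and 0.00 for all tested genes. The summed level of the 48 genes was 5190 and 5114 CPM at 0 h and 5068 and 5015 CPM after 8 h.

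None of the 8 calls at 8 h or of the 8 in the combined group was kept in every fit that left out 1 Ishikawa library. Without the second 0-h replicate, 0 of the 8 members called at 8 h were called, and in the combined group 2 members were called, UHRF1 and PRIM1. The combined call of UHRF1 was lost without the first 0-h replicate, and at 2 h POLE was called down without that library. At 4 h, 0 members were called without either 4-h replicate, 9 without the first 0-h replicate, and only UHRF1 without the second 0-h, either 2-h or the first 8-h replicate. At 8 h, it was 4 without the first and 3 without the second 8-h replicate and 5 without either 2-h replicate. POLE showed the largest gap of any member between the 0-h replicates, at 109 and 136 CPM before E2, 107 and 111 after 2 h, 104 and 103 after 4 h, and 94.8 and 99.5 after 8 h in Ishikawa cells. All 8-h values of POLE were below both 0-h values, and the log2 fold change was -0.34 ± 0.08 (adjusted p = 0.00839), or -0.17 without the second 0-h replicate and -0.30 without the first 8-h replicate, where it was not called.

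LIG1 was at 55.2 and 62.6 CPM before E2, 53.9 and 54.0 after 2 h, 50.1 and 52.2 after 4 h, and 48.8 and 47.1 after 8 h in Ishikawa cells, with an 8-h log2 fold change of -0.30 ± 0.07 (adjusted p = 0.00826), or -0.20 and not called without the second 0-h replicate. MCM5 was at 148 and 154 CPM before E2, 139 and 139 after 2 h, 135 and 131 after 4 h, and 130.0 and 129 after 8 h and changed by -0.22 ± 0.05 on the log2 scale at 8 h (adjusted p = 0.00879), a call lost without the second 0-h replicate (-0.19) and without the first 8-h replicate (-0.22). These genes had 0-h values above all later values, although of the pair only MCM5 was already called at 4 h. RFC4 was at 58.9 and 62.2 CPM before E2, 55.9 and 55.3 after 2 h, 54.2 and 53.9 after 4 h, and 55.3 and 46.2 after 8 h, and its change of -0.26 ± 0.08 (adjusted p = 0.026) was -0.21 without the second 0-h replicate and -0.15 without the second 8-h replicate, where it was not called. RFC3, the member that rose at 8 h, was at 50.3 and 45.2 CPM before E2, 51.9 and 49.9 after 2 h, 57.4 and 53.4 after 4 h, and 54.2 and 58.4 after 8 h, with a log2 fold change of 0.23 ± 0.07 (adjusted p = 0.0319) that lay between 0.16 and 0.31 in the fits that left out 1 library and lost its call without the second 0-h, the second 8-h or either 2-h replicate. TYMS was at 42.5 and 40.4 CPM before E2, 39.0 and 37.7 after 2 h, 37.4 and 38.4 after 4 h, and 36.9 and 34.7 after 8 h, a log2 fold change of -0.22 ± 0.07 (adjusted p = 0.0379) that was called in 2 of the 8 such fits, those without a 4-h replicate, and lay between -0.25 and -0.18 over all of them. The genes with the largest rise in T-47D cells did not pass in Ishikawa cells at 8 h, with DTL at 0.04 ± 0.06 (adjusted p = 0.701), MCM10 at 0.15 ± 0.06 (adjusted p = 0.113) and CDC6 at 0.10 ± 0.06 (adjusted p = 0.242). DTL was at 83.1 and 77.0 CPM before E2, 76.9 and 77.8 after 2 h, 80.7 and 76.9 after 4 h, and 81.4 and 83.2 after 8 h in Ishikawa cells, where the 0-h replicates spanned nearly the whole range of its values. CHAF1B, the gene with the largest Ishikawa change in its group, was at 55.3 and 58.2 CPM before E2, 51.3 and 53.6 after 2 h, 53.2 and 52.0 after 4 h, and 49.7 and 52.1 after 8 h, a log2 fold change of -0.16 ± 0.07 at 8 h that did not pass (adjusted p = 0.09).

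In Ishikawa cells, 6 members lay entirely above and 17 entirely below their 0-h range after 2 h (22.9% and 26.4% of all tested genes), 8 above and 11 below after 4 h (25.8% and 27.8%), and 8 above and 17 below after 8 h (30.0% and 30.5%). CDC6 was at 96.0 and 89.9 CPM before E2, 93.4 and 98.3 after 2 h, 107 and 99.1 after 4 h, and 101 and 98.5 after 8 h. MCM6 was at 179 and 165 CPM before E2, 177 and 171 after 2 h, 183 and 172 after 4 h, and 178 and 186 after 8 h. The 4-h and 8-h values of CDC6 lay above both its 0-h values, whereas those of MCM6 overlapped the 0-h range, and the 8-h log2 fold change of MCM6 was 0.08 ± 0.06 (adjusted p = 0.379). MCM2 was at 249.6 and 262 CPM before E2, 240.3 and 236 after 2 h, 258 and 239.9 after 4 h, and 238 and 242 after 8 h, with both 8-h values below both 0-h values but no call (-0.10 ± 0.06, adjusted p = 0.228). MCM10, the helicase activation gene with the largest Ishikawa change, was at 70.1 and 68.7 CPM before E2, 73.3 and 69.6 after 2 h, 78.7 and 71.1 after 4 h, and 76.6 and 77.3 after 8 h. CDC45 was at 48.3 and 51.4 CPM before E2, 44.9 and 46.9 after 2 h, 48.5 and 48.9 after 4 h, and 47.2 and 46.3 after 8 h. The 8-h values lay above the 0-h values for MCM10 and below them for CDC45 (-0.10 ± 0.07, adjusted p = 0.325).

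Of the polymerase genes, POLE2 was at 18.1 and 16.02 CPM before E2, 18.0 and 17.6 after 2 h, 15.6 and 16.5 after 4 h, and 17.5 and 16.4 after 8 h. PRIM1 was at 39.3 and 32.3 CPM before E2, 32.2 and 33.2 after 2 h, 32.4 and 31.6 after 4 h, and 35.0 and 31.7 after 8 h. POLD2 was at 200.1 and 214 CPM before E2, 201 and 196 after 2 h, 228 and 205 after 4 h, and 209 and 214 after 8 h. The 8-h values of POLE2 lay within the 0-h range, and those of POLD2 and PRIM1 overlapped it, with 8-h log2 fold changes of -0.01, -0.10 and 0.03 for POLE2, PRIM1 and POLD2. PCNA was at 182 and 159 CPM before E2, 181 and 178 after 2 h, 189 and 184 after 4 h, and 182 and 177 after 8 h. FEN1 was at 146 and 146 CPM before E2, 139 and 139.9 after 2 h, 150.4 and 135 after 4 h, and 138 and 147 after 8 h. RRM2 was at 267 and 238 CPM before E2, 252 and 257 after 2 h, 256 and 243 after 4 h, and 261 and 255 after 8 h. Each of these showed overlap between 0 h and 8 h, with 8-h log2 fold changes of 0.07, -0.03 and 0.03. RNASEH2A was at 58.5 and 60.4 CPM before E2, 54.5 and 59.2 after 2 h, 57.9 and 52.9 after 4 h, and 54.8 and 52.4 after 8 h, with 8-h values below the 0-h range and no call (-0.15 ± 0.07, adjusted p = 0.124). UHRF1 was at 87.9 and 92.0 CPM before E2, 94.4 and 98.3 after 2 h, 106 and 103 after 4 h, and 100.3 and 101 after 8 h, so that all values after E2 exceeded both 0-h values. Its log2 fold change was 0.22 ± 0.06 in the 4-h comparison (adjusted p = 0.0183) and 0.16 ± 0.06 in the 8-h comparison, which did not pass (adjusted p = 0.0568).

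**Figure D4:**
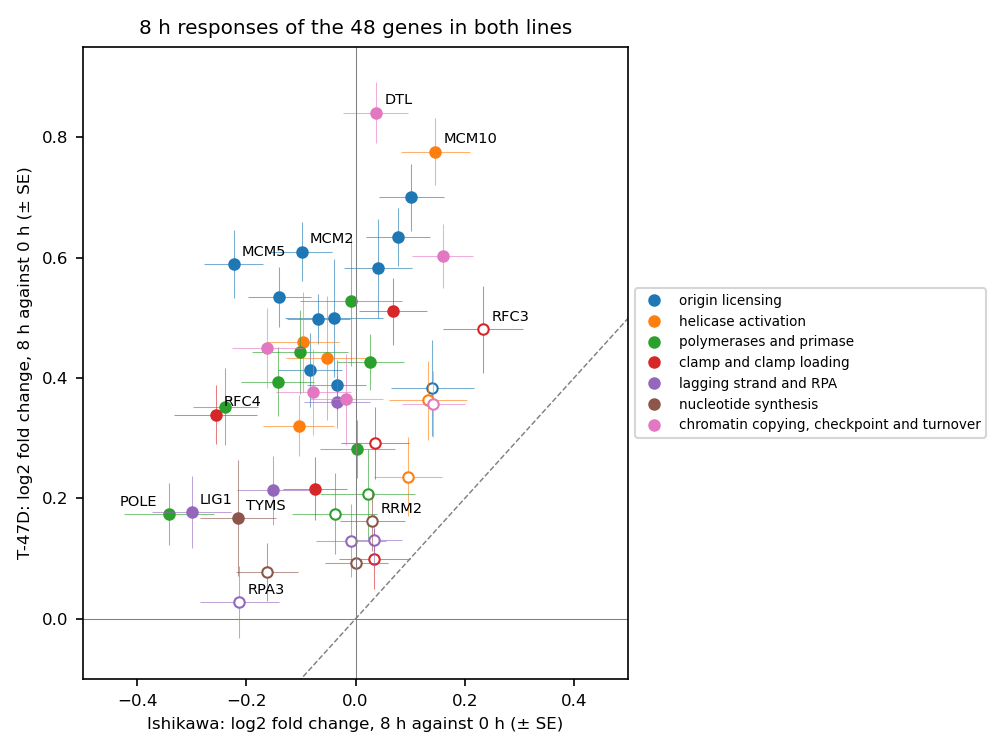
Log2 fold change at 8 h against 0 h in T-47D cells (vertical axis) and Ishikawa cells (horizontal axis) for the 48 genes, colored by role, with bars for 1 SE and a dashed line at equality. All 48 points lie above the line, and filled points mark the 33 genes whose response differed between the lines at 8 h.

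Whether the response itself differed between the lines was tested as the interaction of line and time over all 16 libraries. At 8 h, 33 of 48 members had a larger change in T-47D than in Ishikawa cells and 0 a smaller one, against 10.0% of 17090 genes that differed in either direction. At 4 h, 5 members differed, DTL, CHAF1B, CDT1, MCM5 and PRIM1, all higher in T-47D cells (6.03% of all genes), and at 2 h 0 differed (2.67% of all genes, 3 members and 10.4% of all genes at an unadjusted p under 0.05, 0 members called by DESeq2). The median difference of the members was 0.03 after 2 h, 0.16 after 4 h and 0.43 after 8 h on the log2 scale, compared with 0.01, 0.02 and 0.02 for all genes. In all 48 genes the fitted difference at 8 h was above 0. The 8-h count lay between 27 and 33 in the 16 fits that left out 1 library, and 25 members were called in all of them. At 4 h, DTL was called in all 16 such fits, while each of the other 4 was lost in several. Single libraries moved this count, as 1 member was called without any 2-h library of either line, without the second Ishikawa 4-h replicate, without either T-47D 4-h replicate and without the second T-47D 0-h replicate, 2 without the second Ishikawa 0-h or either Ishikawa 8-h replicate, and 3 without the first Ishikawa 4-h replicate. With RLE in place of TMM scaling, 1 member, DTL, was called at 4 h. With 4-h and 8-h libraries as 1 group in both lines, 19 members differed, a comparison that also averages the T-47D change after 4 h into that after 8 h.

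By role, 10 of 11 licensing genes differed at 8 h, 4 of 6 helicase activation genes, 7 of 9 polymerase and primase genes, 3 of 6 clamp genes, 3 of 6 lagging strand genes, 1 of 4 nucleotide synthesis genes and 5 of 6 genes of chromatin copying, checkpoint and turnover. MCM5 had the largest difference, 0.81 ± 0.08 (adjusted p = 4.01e-07), as its level rose in T-47D cells and fell in Ishikawa cells. DTL followed with 0.80 ± 0.08 (adjusted p = 4.01e-07) and MCM2 with 0.71 ± 0.08 (adjusted p = 1.76e-06). For POLE and LIG1, whose T-47D rise was small, the difference was 0.51 ± 0.11 (adjusted p = 0.00297) and 0.47 ± 0.09 (adjusted p = 0.00204), and it was called in all 16 fits that left out 1 library. POLE2 differed by 0.53 ± 0.15 (adjusted p = 0.0309), a call kept in 9 of 16 such fits with values between 0.39 and 0.70, and lost without the first Ishikawa 0-h or 2-h replicate, either Ishikawa 8-h replicate, the second T-47D 0-h or 8-h replicate, or the first T-47D 4-h replicate. The TYMS difference of 0.38 ± 0.11 (adjusted p = 0.0389) was kept in 5 of 16 fits, with values between 0.30 and 0.46, and was lost without any Ishikawa library other than the second 0-h replicate and without either T-47D 0-h replicate or the first T-47D 4-h or 8-h replicate. RNASEH2A (0.36 ± 0.09, adjusted p = 0.0121) lost its call without the second Ishikawa 8-h replicate (0.30) and without the first T-47D 0-h replicate (0.34). The response of RFC3, called up in both lines at 8 h, was not shown to differ (0.24 ± 0.11, adjusted p = 0.182), nor was that of RRM2 (0.13 ± 0.08, adjusted p = 0.385).

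The lines also differed before E2 was added. At 0 h, 38 members were lower and 5 higher in T-47D than in Ishikawa cells, against 42.4% of all genes lower and 39.5% higher, and the median log2 difference was -0.65 for the members and -0.05 for all genes. The 5 higher genes were GINS2 (1.34 ± 0.06), POLE (0.46 ± 0.08), RPA3 (0.34 ± 0.06), POLD3 (0.21 ± 0.07) and POLA1 (0.15 ± 0.06), of which the POLA1 and POLD3 calls were lost without the first T-47D 0-h or the second Ishikawa 0-h replicate, and that of POLA1 also without the second T-47D 0-h replicate. In the other direction, ORC1 had the largest difference (-2.34 ± 0.10). Several others were also above 1 on the log2 scale in size. They included TYMS (-1.75 ± 0.08), CDC45 (-1.47 ± 0.07), MCM5 (-1.40 ± 0.06) and ORC6, with mean levels of 14.35 CPM in T-47D and 56.52 CPM in Ishikawa cells. TYMS was at 12.1 and 12.5 CPM in T-47D cells and 42.5 and 40.4 CPM in Ishikawa cells at 0 h. The gap narrowed with time in E2: the median log2 ratio of T-47D to Ishikawa mean levels over the 48 genes was -0.65 at 0 h, -0.59 after 2 h, -0.54 after 4 h and -0.26 after 8 h, and the number of members lower in T-47D cells was 40, 40, 39 and 32. For DTL, the T-47D level passed the Ishikawa level, from 54.4 and 52.5 against 83.1 and 77.0 CPM at 0 h to 94.2 and 97.3 against 81.4 and 83.2 CPM after 8 h.

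Levels of different genes were compared per kilobase of merged exons. At 0 h in T-47D cells, TK1 (95.4 CPM per kb) and PCNA (73.2) were highest and GINS3 (2.04), CLSPN (2.34) and ORC1 (2.95) were lowest. In Ishikawa cells, PCNA (122) and TK1 (98.9) were highest. The MCM2-7 subunits, which form 1 hexamer, ranged in T-47D cells from 7.86 CPM per kb for MCM5 to 49.1 for MCM3, and in Ishikawa cells from 20.7 for MCM5 to 78.4 for MCM3. MCM5 was thus the lowest of the 6 subunits per length in both lines at 0 h, and in T-47D cells its rise between 4 h and 8 h was the largest of the 6. With the length of the canonical transcript, the values were 123 for TK1, 80.5 for PCNA, 4.73 for GINS3 and 2.64 for CLSPN in T-47D cells, where TK1 and PCNA were again highest and CLSPN, ORC1 (2.95) and GINS3 lowest, in another order. In Ishikawa cells at that length, PCNA (134), POLD2 (129) and TK1 (127) were highest. Among the helicase subunits, MCM4 (74.8) then stood above MCM3 (58.3) in T-47D cells and MCM7 (106) above MCM3 (93.1) in Ishikawa cells, while MCM5 remained lowest at 16.5 and 43.6, although its Ishikawa replicates overlapped those of MCM6.

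The E2F words were compared with the response. Of the 21 members with a word in a promoter window, 20 rose at 8 h in T-47D cells with a median log2 fold change of 0.43, and of the 21 matched members without a word, 18 rose with a median of 0.35. Among 680 other tested genes with a word, 21.3% rose and 11.8% fell, compared with 15.5% and 15.1% of 10396 other genes without one. The members were picked as replication genes, many of which are known for such words, so these shares are a description.

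Replication and nucleotide genes outside the set were examined in the same way, with 63 genes in 4 lists that had been compiled with earlier results of these data known. In T-47D cells after 8 h, 40 of 63 rose and 1, SHMT1, fell, while 2 rose and 1 fell after 2 h and 25 rose and 1 fell after 4 h. Of all tested genes, 15.4% were called up and 14.3% down after 8 h. The shares were 4.90% and 4.40% after 2 h, and 11.1% and 10.4% after 4 h. At 8 h, 12 of 15 licensing and firing factors, 8 of 16 fork factors, 14 of 23 nucleotide supply genes and 6 of 9 chromatin genes rose. CTPS1, which makes CTP, had the largest change (0.97 ± 0.07, adjusted p = 5.43e-09), followed by DSCC1, a subunit of an alternative clamp loader (0.74 ± 0.10, adjusted p = 1.08e-05). PPAT, the entry enzyme of purine synthesis, was called at 2 h (0.42 ± 0.06, adjusted p = 0.000216), when no member of the set was. In Ishikawa cells at 8 h, 12 of 62 tested genes rose and 6 fell, with 14 and 7 in the combined 4-h and 8-h group. Of all tested genes, 12.0% were called up and 10.1% down at 8 h, and 13.5% and 12.2% in the combined group. The counts of falling genes were thus near the share of all genes. The largest changes there were CHTF18 (-0.49 ± 0.12, adjusted p = 0.00782), a subunit of the same alternative clamp loader as DSCC1, and PPAT (0.49 ± 0.06, adjusted p = 0.000101). The response differed between the lines at 8 h for 21 of 63 genes, all higher in T-47D cells (10.0% of all genes differed in either direction).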

How the data were processed

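Bulk RNA-seq counts of T-47D and Ishikawa cells were analysed, with 2 replicates at each of 4 time points. The authors used HISAT2 for alignment to hg19, SAMtools for file conversion and featureCounts to count reads over UCSC Known Genes, and the deposited counts are not normalized. DESeq2 is also named in the submitters' processing notes. Tool versions and the treatment of strand, read pairs and multiply aligned reads are not given in the sources used here. Even numbers made up 71.2% to 74.6% of counts from 1 to 10, so a count need not be 1 fragment.

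The analysis used edgeR 4.0.16 (R 4.3.3), with filterByExpr, TMM scaling, and the quasi-likelihood F-test on each line with time as a factor, or on all 16 libraries for differences between lines, with Benjamini-Hochberg adjusted p under 0.05 over all tested genes ("called"). Standard errors were derived from the log2 fold change and its F statistic. CPM used TMM-scaled library sizes over all 16 libraries, and fold changes were those of the quasi-likelihood fit. A prior count of 2 was used for the log2 CPM behind the root mean square differences and the correlations between replicate numbers. DESeq2 1.42.0, RLE scaling, other filters and thresholds, the replicate number as a block, halved counts and leaving out each library were alternatives. On simulated data in which 200 genes had a true log2 change of 1, the 8-h T-47D test (15439 genes) recovered 80.5% of them with 3.59% of calls unchanged genes, the Ishikawa test (15611 genes) 78.5% with 7.65%, and the test between lines (16911 genes) 65.5% with 5.76%. The largest member values at 8 h were smaller in size, at 0.84 in T-47D cells, -0.34 in Ishikawa cells and 0.81 between the lines. Recovery of changes of the members' size was not simulated.

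Replicates differed by more than sampling noise, with a chi-square per gene of 3.70 to 11.4, and none was merged. Positions and lengths came from GENCODE v44 on GRCh37 and promoters from RefSeq on GRCh38. Members and lists were chosen with earlier results of these data known. Values in every library are given for the 2 genes of each role group (3 in groups of 9 or more) with the largest T-47D change at 8 h, the 1 with the largest Ishikawa change, and any member that differed between lines at 2 h or was called at 2 h in T-47D cells against its 8-h direction, of which there were none. Other members are given by their changes, and other pathway genes by counts and the 2 largest changes per line.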

Additional observations from a re-analysis of the deposited data

Results flagged for a closer look

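The response to E2 differed between the lines for several members when the difference itself was tested, as the interaction of line and time in the quasi-likelihood model of edgeR, with Benjamini-Hochberg adjusted p-values over all genes. Values are T-47D minus Ishikawa log2 fold changes against 0 h, and all were above 0. At 4 h, the difference was 0.29 for CDT1, 0.28 for MCM5, 0.43 for PRIM1, 0.52 for DTL and 0.30 for CHAF1B. The 4-h value of DTL was the only one called in each of the 16 fits that left out 1 library.

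Among origin licensing genes at 8 h, it was 0.54 for ORC1, 0.54 for ORC6, 0.60 for CDC6, 0.49 for CDT1, 0.71 for MCM2, 0.56 for MCM3, 0.42 for MCM4, 0.81 for MCM5, 0.55 for MCM6 and 0.67 for MCM7. Helicase activation genes differed by 0.63 for MCM10, 0.55 for CDC45, 0.42 for GINS2 and 0.48 for GINS3. For polymerases and primase, the values were 0.28 for POLA1, 0.53 for POLA2, 0.54 for PRIM1, 0.59 for POLD1, 0.40 for POLD2, 0.51 for POLE and 0.53 for POLE2. Clamp and clamp loading genes differed by 0.44 for PCNA, 0.29 for RFC2 and 0.59 for RFC4. In the lagging strand group, the differences were 0.39 for FEN1, 0.47 for LIG1 and 0.36 for RNASEH2A. Of the nucleotide synthesis genes, TYMS differed, by 0.38. Genes of chromatin copying, checkpoint and turnover differed by 0.44 for UHRF1, 0.38 for CLSPN, 0.80 for DTL, 0.45 for CHAF1A and 0.61 for CHAF1B. These differences rest on the time labels of the Ishikawa libraries, and 25 of the 33 were called in every fit that left out 1 library. CLSPN, GINS3, ORC1, POLA1, POLE2, RFC2, RNASEH2A and TYMS lost their call in at least 1 such fit.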

How the results depend on the processing

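The T-47D rise at 8 h, the 0-h difference between the lines and the larger T-47D response at 8 h were kept in direction under every alternative tried, and counts stayed within 1.5 times the reported count except as follows. With no filter on low counts or only the compared time points fitted, 1 member, PCNA, was called at 2 h in T-47D cells. At an adjusted p under 0.01, 8 members were called after 4 h and 5 from 2 h to 4 h in T-47D cells, 0 after 4 h, 4 after 8 h and 3 in the combined group in Ishikawa cells, and 1 between the lines at 4 h. At an adjusted p under 0.1, 8 were called after 4 h and 14 in the combined group in Ishikawa cells, and 11 between the lines at 4 h. The shares of all genes called at these other thresholds were not counted, so these counts do not set the members against other genes. With only the compared time points fitted, 19 were called from 2 h to 4 h in T-47D cells, 0 after 4 h and 4 after 8 h in Ishikawa cells, and 1 between the lines at 4 h. DESeq2 and no filter each gave 5 at 4 h in Ishikawa cells, DESeq2 gave 3 and RLE scaling 1 between the lines at 4 h. With 4-h and 8-h libraries as 1 group, 8 Ishikawa members were called in place of the 4-h result, and 19 differed between the lines in place of the 4-h and 8-h results. The causes were not tested.

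The replicate numbers of the labels carried no pairing, as correlations of same-numbered deviations lay between -0.0274 and 0.0384 in T-47D cells and between -0.0838 and 0.0499 in Ishikawa cells. With the replicate number as a block, 40 members were called at 8 h in T-47D cells and 32 between the lines at 8 h, with 1 at 4 h in Ishikawa cells and 3 between the lines at 4 h as the counts that moved by more than 1.5 times.

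Over the fits that left out 1 library, the count of called members in T-47D cells ranged from 0 to 3 for 2 h, 7 to 20 for 4 h, 36 to 40 for 8 h, 2 to 10 from 2 h to 4 h, and 13 to 28 from 4 h to 8 h. In Ishikawa cells it ranged from 0 to 1 for 2 h, 0 to 9 for 4 h, 0 to 9 for 8 h, and 2 to 10 in the combined group. Between the lines it was 0 for 2 h in every such fit and ranged from 1 to 6 for 4 h, 27 to 33 for 8 h, and 41 to 45 before E2.

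Without 1 library, the sign turned for 10 members at 4 h and 1, RPA3, at 8 h in T-47D cells, for 17 at 8 h and 14 in the combined group in Ishikawa cells, and for 1, RFC1, between the lines at 8 h, and 0 of these had been called. Among the genes named with values, the T-47D 4-h change of POLE was 0.0025 with no filter, 0.0022 with at least 10 counts in every library, and between -0.0537 and 0.0538 without 1 library, and likewise LIG1 lay between -0.0264 and 0.0831 and TYMS between -0.0235 and 0.1125. The Ishikawa 8-h change without 1 library lay between -0.0849 and 0.0778 for POLE2, -0.2314 and 0.0438 for PRIM1, -0.0228 and 0.0836 for POLD2, -0.0183 and 0.1666 for PCNA, -0.0909 and 0.0189 for FEN1, -0.0454 and 0.115 for RRM2, and -0.0107 and 0.0908 for DTL. With the canonical transcript length, chosen after seeing the data, T-47D levels per kilobase at 0 h were 123 for TK1, 80.5 for PCNA, 4.73 for GINS3, 2.64 for CLSPN, 58.3 for MCM3, 74.8 for MCM4, 16.5 for MCM5 and 42.3 for MCM7, and Ishikawa levels were 93.1 for MCM3, 70.2 for MCM4, 43.6 for MCM5 and 106 for MCM7. Of the lagging strand and nucleotide synthesis genes, LIG1, RPA1 and RRM2 lost their T-47D 8-h call in at least 1 such fit. FEN1 and RNASEH2A kept theirs in all of them. The smallest change that could be called with 2 replicates per group was not determined.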
